A study of Mus musculus with 7 samples.

Results

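The nuclear genes for proteins of the mitochondrial ribosome are described here in mouse sinoatrial node, the pacemaker tissue of the heart. They were taken as every row of the deposited expression table whose symbol begins with Mrpl or Mrps and a number, with a completed comparison and a mean of at least 1 FPKM (a read density normalised for transcript length and library size) over both libraries. This gave 76 genes, 47 for the large subunit (Mrpl) and 29 for the small subunit (Mrps), out of 13419 genes that met the same minimum. All 76 matching rows met it, so no member was lost to the filter.

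The Cre library came from sinoatrial node of Sv129 mice, 3 weeks after birth, with the genotype Baf250af/f;Hcn4CreERT2, taken 6 days after tamoxifen. The control library came from Baf250af/f mice of the same strain and age without Cre. Both groups carry the floxed Baf250a alleles, and Baf250a (symbol Arid1a) encodes a DNA-binding subunit of the BAF chromatin remodelling complex. Hcn4CreERT2 is a tamoxifen-activated Cre recombinase expressed from Hcn4, a pacemaker channel gene, so only part of the cells in the tissue can recombine. The labels do not give the number or sex of mice in a library, or say whether the control mice received tamoxifen. The series has 7 samples, of which the 5 libraries of a time course up to 48 h were not analysed here. Each genotype has a single library, so the differences below could not be checked in replicates or tested.

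Mitochondria carry their own small genome, whose messages encode core subunits of the respiratory chain and ATP synthase. A separate ribosome inside the organelle translates them. Its RNAs come from mitochondrial DNA, but all of its proteins are encoded in the nucleus, made in the cytosol and imported. The small subunit holds the mRNA and decodes it, and the large subunit joins amino acids and passes the new chain out through an exit tunnel that faces the inner membrane. Heart muscle depends on this machinery because it runs on oxidative phosphorylation. Transcription factors known in mammals to act on genes of this kind include NRF1, the ETS-family factor GABP and YY1.

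Arid1a had 12.3 FPKM in the Cre library and 34.9 FPKM in the control library (log2 ratio of FPKM + 1, -1.43), with p = 0.0603 and q = 0.838 in the authors' deposited table. The libraries stood apart in markers of other cell types, and these values stand beside every result below. Summed FPKM of 13 thymocyte markers was 7.22 in the Cre library and 2926 in the control library, and that of 12 cell cycle genes 31.6 in Cre and 656 in control, each gene being at least 2-fold lower. Summed FPKM of 10 lung and airway markers was 18649 in the Cre library and 4196 in the control library, and all 10 were at least 2-fold higher. The 12 working cardiomyocyte markers summed to 25362 FPKM in the Cre library and 17951 FPKM in the control library, with 7 at least 2-fold higher. Fibroblast (2688 FPKM in Cre and 2140 FPKM in control), endothelial (413 FPKM in Cre and 315 FPKM in control) and brown fat (1487 FPKM in Cre and 1216 FPKM in control) sums differed less, with 1 fibroblast marker at least 2-fold higher and 2 of 6 brown fat markers, Elovl3 and Dio2, at least 2-fold lower. No marker was listed at 0. Of 10 pacemaker markers 8 met the minimum, and the 10 summed to 140 FPKM in the Cre library and 58.3 FPKM in the control library. Most of this sum was Popdc2 (111 FPKM in Cre and 43.8 FPKM in control), which with Kcne1 (9.96 FPKM in Cre and 0.711 FPKM in control) was at least 2-fold higher. Isl1 (2.02 FPKM in Cre and 1.69 FPKM in control) and Shox2 (1.26 FPKM in Cre and 1.20 FPKM in control) were not. Hcn4, which defines pacemaker cells, had 0.719 FPKM in the Cre library and 0.605 FPKM in the control library, under the minimum of 1 FPKM in both. The part of these differences in the ratios of Arid1a, the members, their neighbours and regulators was not tested. In bulk tissue fewer cells of a type and less RNA per cell cannot be told apart.

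The 76 genes were expressed at nearly the same level in both libraries. Their FPKM summed to 3886 in the Cre library and 4052 in the control library (log2 ratio -0.06). The log2 ratio of each gene was taken as that of FPKM + 1, Cre over control, and its median over the members was -0.06, beside -0.07 over all genes. By this ratio no member was 2-fold or even 1.5-fold apart between the libraries. Among all genes, 6.07% were at least 2-fold higher and 10.4% at least 2-fold lower in the Cre library, and 16.6% and 22% were at least 1.5-fold higher and lower. Without the added 1 FPKM, in the authors' deposited log2 fold change, Mrps25 (-0.60) was the only member past 1.5-fold. Of the members 48 of 76 lay below equal expression (63.2%), as did 54.1% of all genes. This count turned with the scaling, to 37 with ratios centred on the median of all genes and 15 at the same upper quartile. It was 33 with both libraries at the same sum without the thymocyte, cell cycle, lung and airway, and working cardiomyocyte markers. In the authors' deposited table no member was called significant, beside 0.671% of all genes, and the smallest p-value of a member was 0.532, for Mrps25 (q = 0.999).

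The values held within a narrow band. Log2 ratios of the members ran from -0.57 to 0.39, with quartiles of -0.19 and 0.12 and an SD across genes of 0.22. Over all genes the quartiles were -0.52 and 0.38 and the SD 0.94. An absolute log2 ratio under 0.2 was found for 45 of 76 members (59.2%) and for 23.7% of all genes, and one under 0.3 for 63 members (82.9%) and 34.8% of all genes. Other large mitochondrial and ribosomal families were as narrow. Of the 81 oxidative phosphorylation genes 48 (59.3%) were under 0.2, with an SD of 0.22, and the interquartile range was 0.31 for the members, 0.24 for oxidative phosphorylation and 0.21 for the 81 cytosolic ribosomal protein genes, around other medians given further on. Among the 8678 genes whose mean FPKM lay within the range of the members, the median was -0.15 and 63.7% were within 1.5-fold, against 100% of the members. These are counts over genes of a single pair of libraries, and genes are not replicates.

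**Figure D1:**
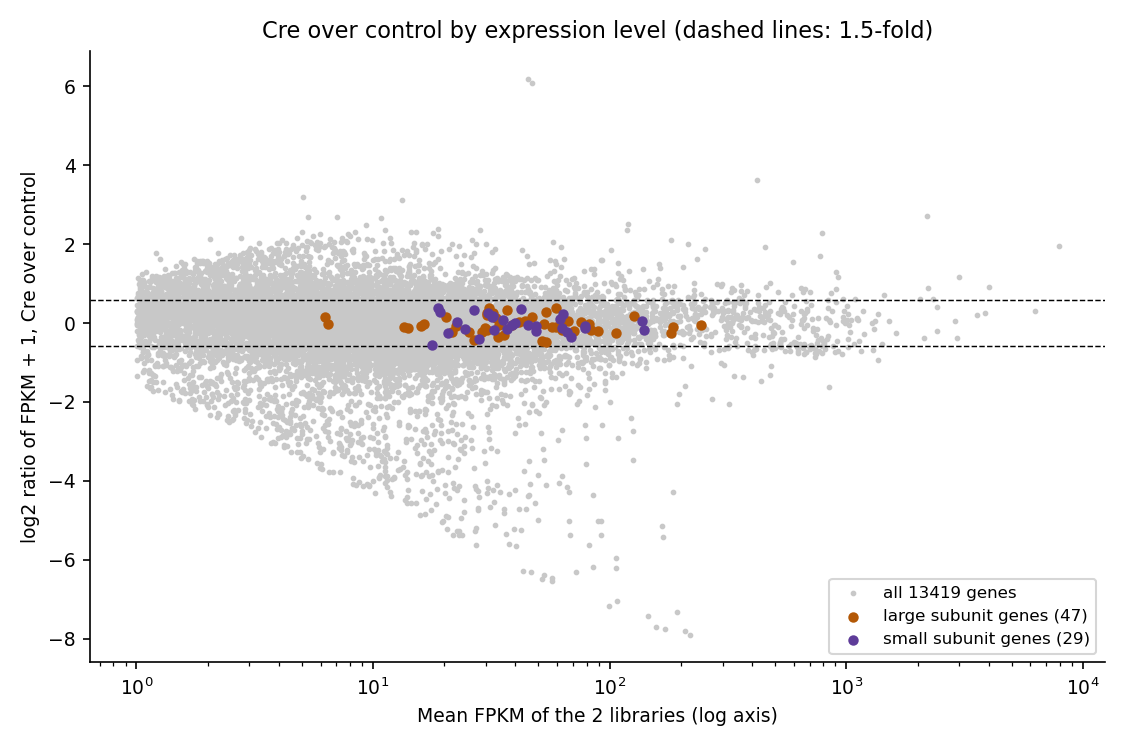
Log2 ratio of FPKM + 1, Cre over control (y axis), against the mean FPKM of both libraries on a log axis, for all 13419 genes (grey), the 47 large subunit genes (orange) and the 29 small subunit genes (purple). All 76 coloured points lie between the dashed lines at 1.5-fold, from -0.57 to 0.39, while grey points at the same levels spread far beyond them.

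The upstream stretches below are shown because they carry the sequence features taken up further on: matches to NRF1 and ETS motifs, the gap between a pair of oppositely oriented genes, and the genes at either end of the range of ratios. Each is the longest stretch, within the 250 bases before the RefSeq start (GRCm38.p6), that no exon in GENCODE M21 covers, written 5′ to 3′ on the strand of the gene. Capitals mark matches on either strand to GCGCNTGCG (NRF1) or CCGGAAG (the ETS motif bound by GABP). Mrpl43, at chr19:45006443-45006557 on the minus strand, holds a match of the NRF1 motif and 2 of the ETS motif.
Mrpl43: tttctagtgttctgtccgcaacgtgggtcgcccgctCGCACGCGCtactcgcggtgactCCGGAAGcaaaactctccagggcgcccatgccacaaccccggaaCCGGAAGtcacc
Mrpl45, at chr11:97315466-97315715 on the plus strand, holds 2 NRF1 matches.
Mrpl45: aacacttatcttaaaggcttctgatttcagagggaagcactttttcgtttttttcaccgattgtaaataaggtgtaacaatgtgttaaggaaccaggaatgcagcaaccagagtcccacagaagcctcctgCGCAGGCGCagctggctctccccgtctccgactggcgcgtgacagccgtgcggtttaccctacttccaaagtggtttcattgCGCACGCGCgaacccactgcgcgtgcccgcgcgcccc
The stretch of Mrpl30, at chr1:37890412-37890476 on the plus strand, is the gap towards the start of Mitd1 on the other strand.
Mrpl30: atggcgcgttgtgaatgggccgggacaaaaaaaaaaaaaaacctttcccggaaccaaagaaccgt
That of Mrps27, at chr13:99344706-99344785 on the plus strand, is the gap towards Ptcd2 and holds an ETS match.
Mrps27: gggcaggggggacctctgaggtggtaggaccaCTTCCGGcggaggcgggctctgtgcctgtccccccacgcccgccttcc
Mrps25, at chr6:92184034-92184273 on the minus strand, and Mrpl55, at chr11:59202386-59202485 on the plus strand, had the lowest and the highest log2 ratio of all members, and neither stretch holds a match.
Mrps25: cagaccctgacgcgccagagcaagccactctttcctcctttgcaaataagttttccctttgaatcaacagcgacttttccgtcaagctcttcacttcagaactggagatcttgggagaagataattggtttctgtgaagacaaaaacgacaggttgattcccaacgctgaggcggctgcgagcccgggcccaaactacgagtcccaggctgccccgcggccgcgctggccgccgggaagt
Mrpl55: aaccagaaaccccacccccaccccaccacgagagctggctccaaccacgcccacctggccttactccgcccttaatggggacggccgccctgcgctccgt

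Levels differed far more between members than between the libraries. The members spanned 6.41 to 240 FPKM in the Cre library, a 37.5-fold range, and 5.85 to 248 FPKM in the control library, a 42.4-fold range. Their median was 38.8 FPKM in the Cre library and 39.3 FPKM in the control library, at the 85.6 percentile of all genes in Cre and the 83.6 in control. The order of the genes was nearly the same in both: Spearman's rho of Cre against control FPKM was 0.96 across the 76 genes, and 0.83 across all genes. This describes genes that share a library and not independent samples.

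Mrpl42, a large subunit protein without a bacterial counterpart, was the most abundant member, with 240 FPKM in the Cre library and 248 FPKM in the control library (log2 ratio -0.04). By mean level Mrpl30 followed with 179 FPKM in the Cre library and 191 FPKM in the control library (-0.09), and Mrpl33 with 165 FPKM in Cre and 198 FPKM in control (-0.26). Mrps36 was the second most abundant small subunit gene by mean, with 140 FPKM in the Cre library and 134 FPKM in the control library (0.05). Mrps36 carries the family name, but its protein is now known as a component of the mitochondrial 2-oxoglutarate dehydrogenase complex. At the low end stood Mrpl19, with 6.41 FPKM in the Cre library and 6.49 FPKM in the control library (-0.02), and Mrpl17, with 6.65 FPKM in Cre and 5.85 FPKM in control (0.16). These 2 genes and Mrpl35 (13.1 FPKM in Cre, 14.0 FPKM in control) were the members nearest to the minimum of 1 FPKM, and all 3 lay well above it.

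**Figure D2:**
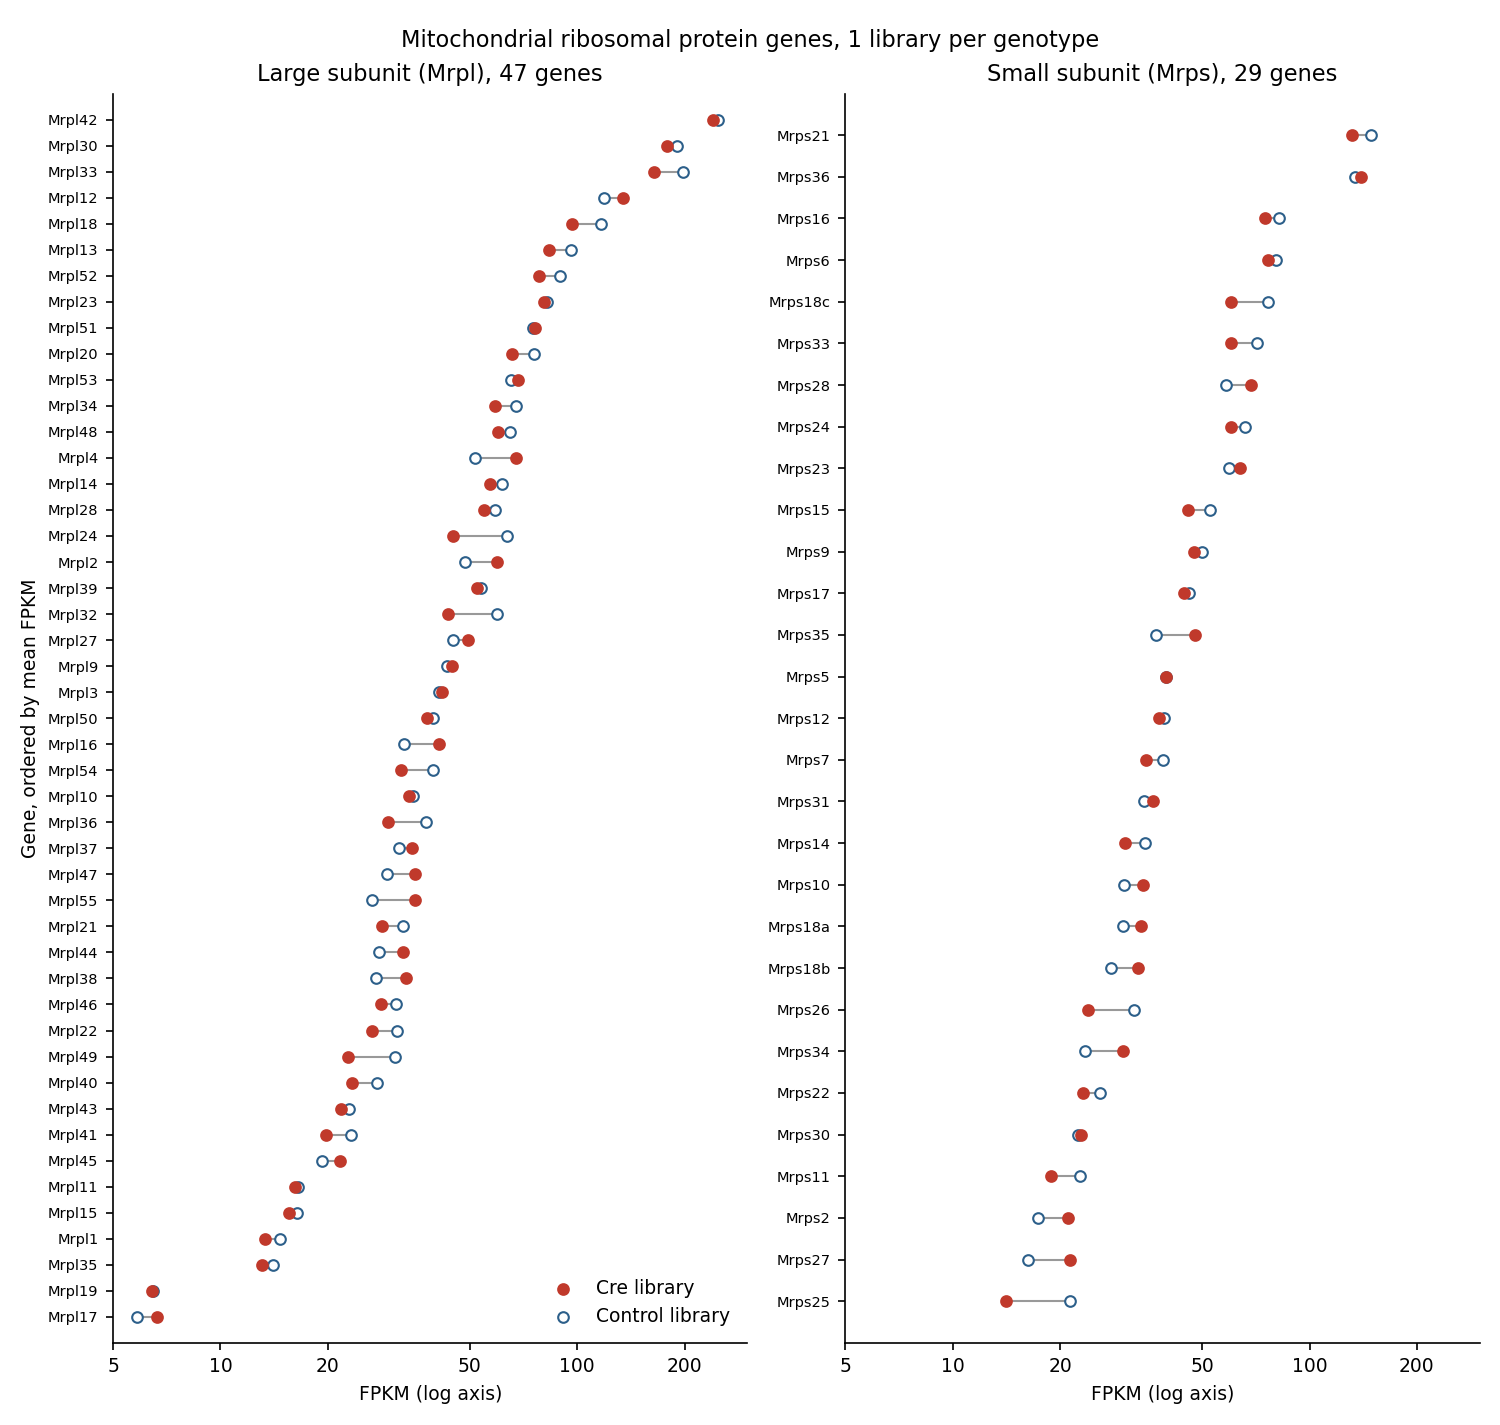
FPKM of each member on a log axis, for the large subunit (left panel, 47 genes) and the small subunit (right panel, 29 genes), ordered by mean FPKM, with the Cre library as filled red points and the control library as open blue points. The pair of points of each gene lies close together compared with the span between genes, which runs from 6.41 to 240 FPKM in the Cre library.

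The subunits did not part. For the large subunit genes the median log2 ratio was -0.07, with 16 above and 31 below equal expression and summed levels of 2509 FPKM in the Cre library and 2633 FPKM in the control library. The small subunit genes had a median of -0.05, with 12 above and 17 below, and sums of 1376 FPKM in Cre and 1419 FPKM in control. The median large subunit gene was at 1.08 times the level of the median small subunit gene in the Cre library and 1.02 times in the control library. Mrps30 and Mrps18a bear small subunit symbols, but their proteins sit in the mammalian large subunit. With both placed there and Mrps36 left out, the median log2 ratio was -0.05 over 49 large subunit genes and -0.07 over 26 small subunit genes, so the order of the subunits turned with the assignment.

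At the lower end of the large subunit was Mrpl24, a protein beside the exit tunnel, with 44.7 FPKM in the Cre library and 63.4 FPKM in the control library (-0.49). Mrpl32, which is matured by the m-AAA protease of the inner membrane, had 43.6 FPKM in the Cre library and 59.8 FPKM in the control library (-0.45). Mrpl49 had 22.7 FPKM in the Cre library and 30.9 FPKM in the control library (-0.43). These 3 were the only large subunit genes below a log2 ratio of -0.4. Mrpl36 (29.5 FPKM in Cre and 37.7 FPKM in control, -0.34) came next. Mrpl54 (32.1 FPKM in Cre and 39.5 FPKM in control, -0.29) and Mrpl18 (96.8 FPKM in Cre and 116 FPKM in control, -0.26) followed. Mrpl18 belongs to the central protuberance, a part of the large subunit.

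At the upper end was Mrpl55, with 35.1 FPKM in the Cre library and 26.6 FPKM in the control library (0.39). Mrpl4, a protein with a bacterial counterpart, had 67.2 FPKM in the Cre library and 51.6 FPKM in the control library (0.37). Mrpl16 had 40.9 FPKM in the Cre library and 32.6 FPKM in the control library (0.32). In size these positive ratios were no larger than the negative ones at the other end. Mrpl2 (59.5 FPKM in Cre and 48.6 FPKM in control, 0.29), Mrpl38 (33.0 FPKM in Cre and 27.3 FPKM in control, 0.26) and Mrpl47 (35.2 FPKM in Cre and 29.3 FPKM in control, 0.26) followed. Mrpl2 builds part of the peptidyl transferase region in the ribosome core.

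In the small subunit Mrps25 stood lowest of all 76 genes, with 14.1 FPKM in the Cre library and 21.4 FPKM in the control library (-0.57). That was just short of 1.5-fold with 1 FPKM added, while the authors' deposited log2 fold change (-0.60) was just past it. Mrps26 had 23.9 FPKM in the Cre library and 32.1 FPKM in the control library (-0.41), and Mrps11 had 18.9 FPKM in Cre and 22.7 FPKM in control (-0.25). Mrps33 had 60.4 FPKM in the Cre library and 71.4 FPKM in the control library (-0.24), and Mrps15 had 45.5 FPKM in Cre and 52.6 FPKM in control (-0.20). Mrps25 and Mrps26 have no counterpart in bacterial ribosomes, while Mrps11 and Mrps15 do.

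On the other side was Mrps27, a pentatricopeptide repeat protein, with 21.3 FPKM in the Cre library and 16.2 FPKM in the control library (0.38). Mrps35 had 47.6 FPKM in the Cre library and 37.0 FPKM in the control library (0.36), and Mrps34 had 30.0 FPKM in Cre and 23.5 FPKM in control (0.34). Mrps2, in the bacterial core set, had 21.1 FPKM in the Cre library and 17.3 FPKM in the control library (0.27), and Mrps28 had 68.4 FPKM in Cre and 58.5 FPKM in control (0.22). The abundant small subunit genes lay between: Mrps21 had 131 FPKM in the Cre library and 148 FPKM in the control library (-0.17), Mrps16 had 75.01 FPKM in Cre and 82.1 FPKM in control (-0.13), and Mrps6 had 76.5 FPKM in Cre and 80.4 FPKM in control (-0.07).

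For 9 members the deposited locus is shared with another row, so reads may be shared. The lowest gene of each subunit is among them: Mrps25 (mm9 chr6:92041411-92134017) shares its locus with Nr2c2, at 5.67 FPKM in the Cre library and 9.36 FPKM in the control library (-0.64). Mrpl24 (mm9 chr3:87723465-87734117) shares its locus with Rrnad1, at 8.32 FPKM in the Cre library and 12.8 FPKM in the control library (-0.56). Mrpl49 and Mrps27 share theirs with Syvn1 and 6430562O15Rik. Over the 9 pairs the log2 ratio of the partner had the sign of the member in 7, and not for Mrpl48 (-0.10) with Rab6 (0.01) or Mrpl53 (0.06) with Ccdc142 (-0.21). The part of shared reads was not tested.

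Members grouped by origin and by place in the ribosome also gave medians near 0. The median log2 ratio was -0.08 over the 30 large subunit genes with a bacterial counterpart and -0.05 over the 17 without one. The 16 small subunit genes with a bacterial counterpart had a median of -0.10, with 13 below equal expression, beside 54.1% of all genes. The other genes with small subunit symbols, without Mrps30, Mrps18a and Mrps36, are 10, among them the S18 paralogue Mrps18b, and had a median of 0.09, with 4 below. Once the libraries were scaled to the same upper quartile both medians were positive (0.12 for the 16 and 0.31 for the 10). The stalk that recruits elongation factors (Mrpl10, Mrpl11 and Mrpl12) had a median of -0.02. Mrpl12, reported in human cells also to bind the mitochondrial RNA polymerase, had 134 FPKM in the Cre library and 119 FPKM in the control library (0.17). The 6 genes of the polypeptide exit (Mrpl22, Mrpl23, Mrpl24, Mrpl44, Mrpl45 and Mrpl47) had a median of 0.07, and the 7 genes of the central protuberance -0.13.

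Mammals have 3 paralogues of the bacterial protein S18, and these did not line up. Mrps18c had 60.2 FPKM in the Cre library and 76.6 FPKM in the control library (-0.34). Mrps18b had 33.1 FPKM in the Cre library and 27.8 FPKM in the control library (0.24), and Mrps18a 33.7 FPKM in Cre and 30.0 FPKM in control (0.16). Mrps18c was the most abundant of the 3 in both libraries.

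Further proteins of the mitochondrial ribosome have symbols outside the Mrpl and Mrps series. All 7 that were listed had negative log2 ratios, against 54.1% of all genes, with a median of -0.40 beside -0.06 for the members. Gadd45gip1, a large subunit protein near the exit, had 6.64 FPKM in the Cre library and 11.98 FPKM in the control library (-0.76). Ict1, a peptidyl-tRNA hydrolase built into the large subunit, had 45.6 FPKM in the Cre library and 71.7 FPKM in the control library (-0.64). These 2 were at least 1.5-fold lower, as were 22% of all genes. Dap3, a GTP-binding protein of the small subunit, had 18.8 FPKM in the Cre library and 25.1 FPKM in the control library (-0.40), and Mrp63 had 9.88 FPKM in Cre and 13.4 FPKM in control (-0.40). Chchd1 (92.0 FPKM in Cre and 111 FPKM in control, -0.27), Aurkaip1 (84.6 FPKM in Cre and 93.0 FPKM in control, -0.14) and Ptcd3 (49.7 FPKM in Cre and 50.8 FPKM in control, -0.03) completed the 7. When each library was scaled to the same total, 6 of 7 were below equal expression, and with the same upper quartile 5 of 7 were.

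The genes that build and serve this ribosome were likewise spread around equal expression. Of 35 symbols of assembly and rRNA factors 27 were measured, with a median of 0.00, 14 above and 13 below. Afg3l2, a subunit of the m-AAA protease that matures Mrpl32, had 51.9 FPKM in the Cre library and 29.5 FPKM in the control library (0.79). Rpusd4, a pseudouridine synthase for mitochondrial rRNA, had 7.88 FPKM in the Cre library and 14.1 FPKM in the control library (-0.77). Afg3l2 and Rpusd4 were the only genes of that list past 1.5-fold by the ratio of FPKM + 1. Mterfd2 was just short of it by this ratio, with 12.6 FPKM in the Cre library and 8.26 FPKM in the control library (0.55). The 17 translation factors had a median of 0.09, with 12 above and 5 below. Over all genes 54.1% lay below equal expression, 16.6% were at least 1.5-fold higher and 22% at least 1.5-fold lower.

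Among the translation factors, Gfm1, the elongation factor that moves the ribosome along, had 49.99 FPKM in the Cre library and 30.3 FPKM in the control library (0.71). Lrpprc, which stabilises mitochondrial mRNAs, had 34.9 FPKM in the Cre library and 22.5 FPKM in the control library (0.61). Both were at least 1.5-fold higher, as were 16.6% of all genes. Tufm, the factor that delivers aminoacyl-tRNA, was not, with 88.9 FPKM in the Cre library and 73.7 FPKM in the control library (0.27). The 19 mitochondrial tRNA synthetase genes had a median of -0.05. Lars2 had 297 FPKM in the Cre library and 251 FPKM in the control library (0.25), and Aars2 had 6.18 FPKM in Cre and 11.0 FPKM in control (-0.74). The 13 genes of mitochondrial DNA replication and transcription had a median of -0.15. Polg, the DNA polymerase of the organelle, had 12.1 FPKM in the Cre library and 20.9 FPKM in the control library (-0.74). Tfam, which packs mitochondrial DNA and takes part in its transcription, had 15.8 FPKM in the Cre library and 20.4 FPKM in the control library (-0.35).

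The products that the mitochondrial ribosome works beside, and the other ribosome of the cell, had medians on either side of the members. The 81 oxidative phosphorylation subunits encoded in the nucleus had a median log2 ratio of 0.13, with 70 above equal expression. Atp5b, of ATP synthase, had 2459 FPKM in the Cre library and 1620 FPKM in the control library (0.60). Cox7a2 had 321 FPKM in the Cre library and 509 FPKM in the control library (-0.66). Of that list 3 genes were at least 1.5-fold higher and 1 at least 1.5-fold lower, against 16.6% and 22% of all genes. The 81 cytosolic ribosomal protein genes had a median of -0.54, with 80 below equal expression and 30 at least 1.5-fold lower. Among all genes 54.1% were below equal expression and 22% at least 1.5-fold lower. Rpl32 had 524 FPKM in the Cre library and 947 FPKM in the control library (-0.85), and Rps14 had 701 FPKM in Cre and 1217 FPKM in control (-0.80). Rps27 had 3.18 FPKM in the Cre library and 22.6 FPKM in the control library (-2.50). The medians of both lists kept their sign under every alternative setting, from 0.13 to 0.36 for oxidative phosphorylation and from -0.55 to -0.33 for the cytosolic ribosome, whereas that of the members ran from -0.06 to 0.16.

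**Figure D3:**
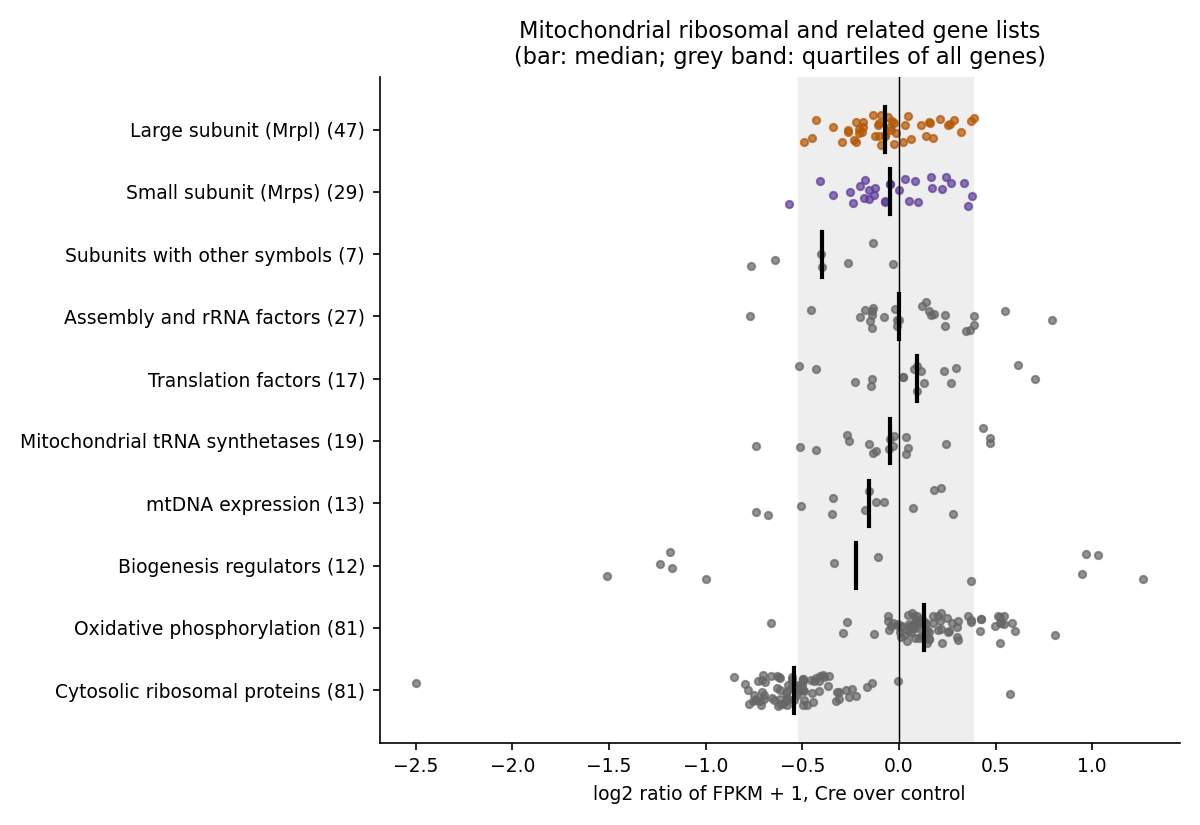
Log2 ratio of FPKM + 1, Cre over control, of each gene (points) in the large and small subunit and in 8 related lists, with the number of genes in brackets, the median of each list as a black bar and the quartiles of all genes as a grey band. The members lie within a band about 0 (medians -0.07 and -0.05). The oxidative phosphorylation genes lie mostly to the right of 0 (median 0.13) and the cytosolic ribosomal protein genes mostly to its left (-0.54). The regulators spread from -1.51 to 1.26.

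The transcription regulators of mitochondrial genes differed in direction among themselves: of 12, 4 were at least 1.5-fold higher and 5 at least 1.5-fold lower, against 16.6% and 22% of all genes. Nrf1 itself had 5.33 FPKM in the Cre library and 17.0 FPKM in the control library (-1.51). The GABP beta subunit genes Gabpb1 and Gabpb2 had 8.19 and 10.2 FPKM in the Cre library, against 19.9 and 25.3 FPKM in the control library (-1.18 and -1.23). Gabpa, the DNA-binding subunit of GABP, had 26.3 FPKM in the Cre library and 28.4 FPKM in the control library (-0.11). Myc had 3.92 FPKM in the Cre library and 10.1 FPKM in the control library (-1.17), and Yy1 had 18.7 FPKM in Cre and 38.4 FPKM in control (-0.997). By the ratio of FPKM + 1, 4 genes of the list were at least 2-fold lower and Yy1 was just short of it. With a pseudocount of 0.1 FPKM Yy1 (-1.03) passed 2-fold as well.

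The coactivator and nuclear receptor genes of the same list had positive ratios, except the coactivator gene Pprc1 (2.80 FPKM in Cre and 3.80 FPKM in control, -0.34). Ppargc1b had 9.14 FPKM in the Cre library and 3.22 FPKM in the control library (1.26), and Ppara had 14.2 FPKM in Cre and 6.47 FPKM in control (1.03). These 2 were at least 2-fold higher by the ratio of FPKM + 1. Ppargc1a had 18.6 FPKM in the Cre library and 9.02 FPKM in the control library (0.97). Esrrg had 4.80 FPKM in the Cre library and 2.01 FPKM in the control library (0.94), and Esrra had 38.2 FPKM in Cre and 29.3 FPKM in control (0.37). With a pseudocount of 0.1 FPKM Ppargc1a (1.03) and Esrrg (1.21) passed 2-fold as well. The signs of Nrf1, Gabpb1, Gabpb2, Yy1, Myc, Ppargc1a, Ppargc1b and Ppara were the same under every alternative setting.

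Upstream windows from RefSeq (GRCm38.p6, 250 bases before to 50 after a start) matched 67 of the 76 members by symbol, with 73 windows in all. The other 9 were Mrpl4, Mrpl13, Mrpl15, Mrpl19, Mrpl38, Mrpl54, Mrps28, Mrps34 and Mrps35. The ETS motif CCGGAAG was present in 24 of the 73 windows (32.9%), in 16.0% of the windows of all genes over the minimum and in 8.86% of all 32851 windows. The NRF1 motif GCGCNTGCG was present in 17 member windows (23.3%), against 12.3% and 6.31%. The YY1 motif AAGATGGC was present in 12 member windows (16.4%), against 3.99% and 2.75%. The E-box CACGTG, bound by Myc among others, was present in 7 member windows (9.59%), against 9.69% and 7.15%. Other families had shares as high: 34.7% of cytosolic ribosomal protein windows held the ETS motif and 34.3% of oxidative phosphorylation windows the NRF1 motif. No ETS match of a member overlapped a YY1 match, and both strands were searched throughout. Members had a median GC content of 58.3% in these windows, against 60.3% for genes over the minimum and 52.7% for all windows.

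With an NRF1 match, as in Mrpl43 and Mrpl45 shown above, the median was -0.07 over 17 genes, and without one -0.08 over 50. With an ETS match it was -0.12 over 24 genes, and without one -0.05 over 43. With a YY1 match it was -0.11 over 12 genes, and without one -0.07 over 55. The widest gap was for the E-box, with -0.20 over 5 genes with a match and -0.07 over 62 without. All of these medians lie well inside the range of the members, from -0.57 to 0.39. Mrpl43 had 21.8 FPKM in the Cre library and 23.0 FPKM in the control library (-0.07), and Mrpl45 had 21.6 FPKM in Cre and 19.2 FPKM in control (0.16). A match is a run of letters and not a site known to be bound.

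**Figure D4:**
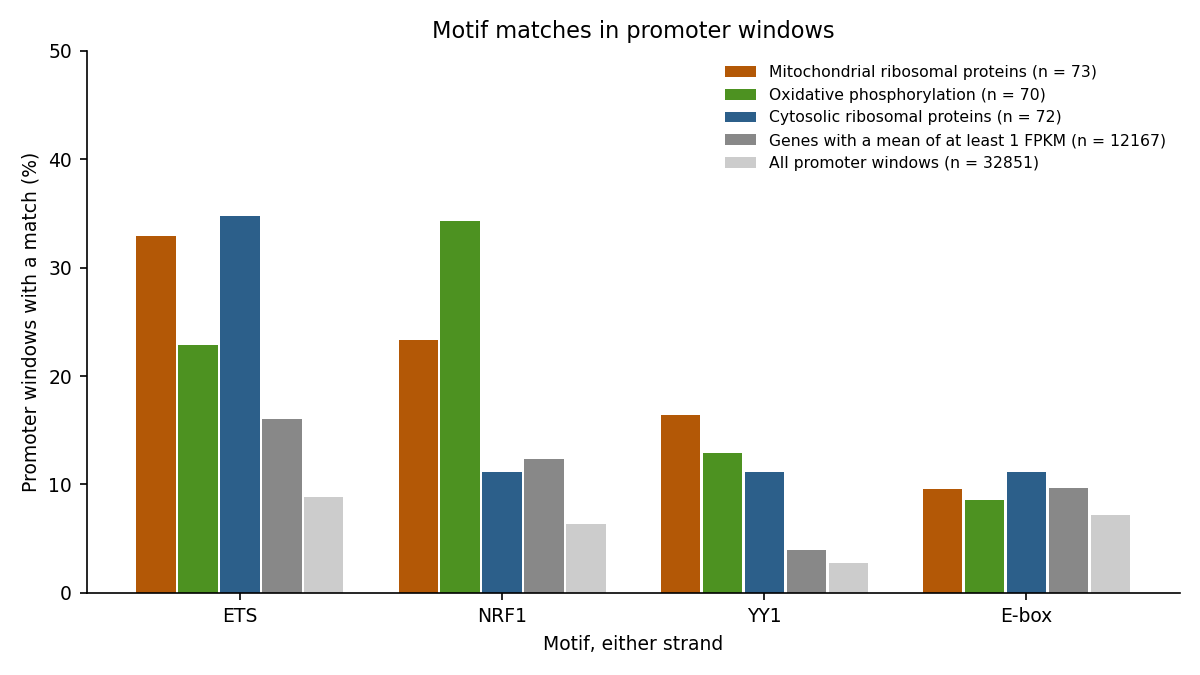
Share of promoter windows (%, bars from 0) with a match to each motif on either strand, for the 73 member windows, 70 of oxidative phosphorylation genes, 72 of cytosolic ribosomal protein genes, 12167 of genes over the minimum and all 32851 windows. Members stand at 32.9% for ETS, 23.3% for NRF1 and 16.4% for YY1, above both backgrounds, but cytosolic ribosomal protein genes reach 34.7% for ETS and oxidative phosphorylation genes 34.3% for NRF1, and members stand at 9.59% for the E-box, level with genes over the minimum (9.69%).

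Some members start close to a gene on the opposite strand. In GENCODE M21 (GRCm38), 25 members had a protein-coding gene whose start lay within 1000 bases upstream on the other strand or overlapped theirs by less than 500 bases. The share of all genes that start opposite another in this way was not computed. Mrpl46 and Mrps11 form such a pair between themselves, at -0.13 and -0.25. The other 23 pairs join a member to a gene of another family. The members of these pairs had a median log2 ratio of -0.05 and ranged from -0.45 to 0.38. For their neighbours the median was -0.44 and the range -2.93 to 1.47. Among the neighbours 9 were at least 1.5-fold lower and 2 at least 1.5-fold higher, while none of the members was. That is 39.1% and 8.70% of the neighbours, against 22% and 16.6% of all genes.

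The widest gap was at Mrpl51, with 76.2 FPKM in the Cre library and 75.1 FPKM in the control library (0.02). Its neighbour Ncapd2, a condensin subunit used in mitosis, starts 100 bases away and had 6.40 FPKM in the Cre library and 55.5 FPKM in the control library (-2.93). Mrpl27 had 49.5 FPKM in the Cre library and 44.8 FPKM in the control library (0.14), and the neighbour whose start overlaps it, the DNA repair endonuclease gene Eme1, had 1.32 FPKM in Cre and 5.63 FPKM in control (-1.52). In both pairs the member was level between the libraries and the neighbour was not. Mitd1, which starts 66 bases from Mrpl30 across the stretch shown above, had 7.95 FPKM in the Cre library and 19.2 FPKM in the control library (-1.17). Gga3, opposite Mrps7 (34.9 FPKM in Cre, 38.9 FPKM in control, -0.15), had 5.88 FPKM in the Cre library and 15.4 FPKM in the control library (-1.25).

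In the other direction, Lrrc46 had 4.10 FPKM in the Cre library and 0.836 FPKM in the control library (1.47), opposite Mrpl10 with 33.7 FPKM in Cre and 34.7 FPKM in control (-0.04). Wdfy1 had 16.8 FPKM in the Cre library and 10.4 FPKM in the control library (0.64), opposite Mrpl44 with 32.5 FPKM in Cre and 27.9 FPKM in control (0.21). Not every pair diverged: Mrpl32 and its neighbour Psma2, a proteasome subunit gene, had log2 ratios of -0.45 and -0.43. Mrpl49 (-0.43) lies opposite Fau, a cytosolic ribosomal protein gene, which had 510 FPKM in the Cre library and 847 FPKM in the control library (-0.73). Of the 23 neighbours 12 (52.2%) were within 1.5-fold, against 61.4% of all genes.

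**Figure D5:**
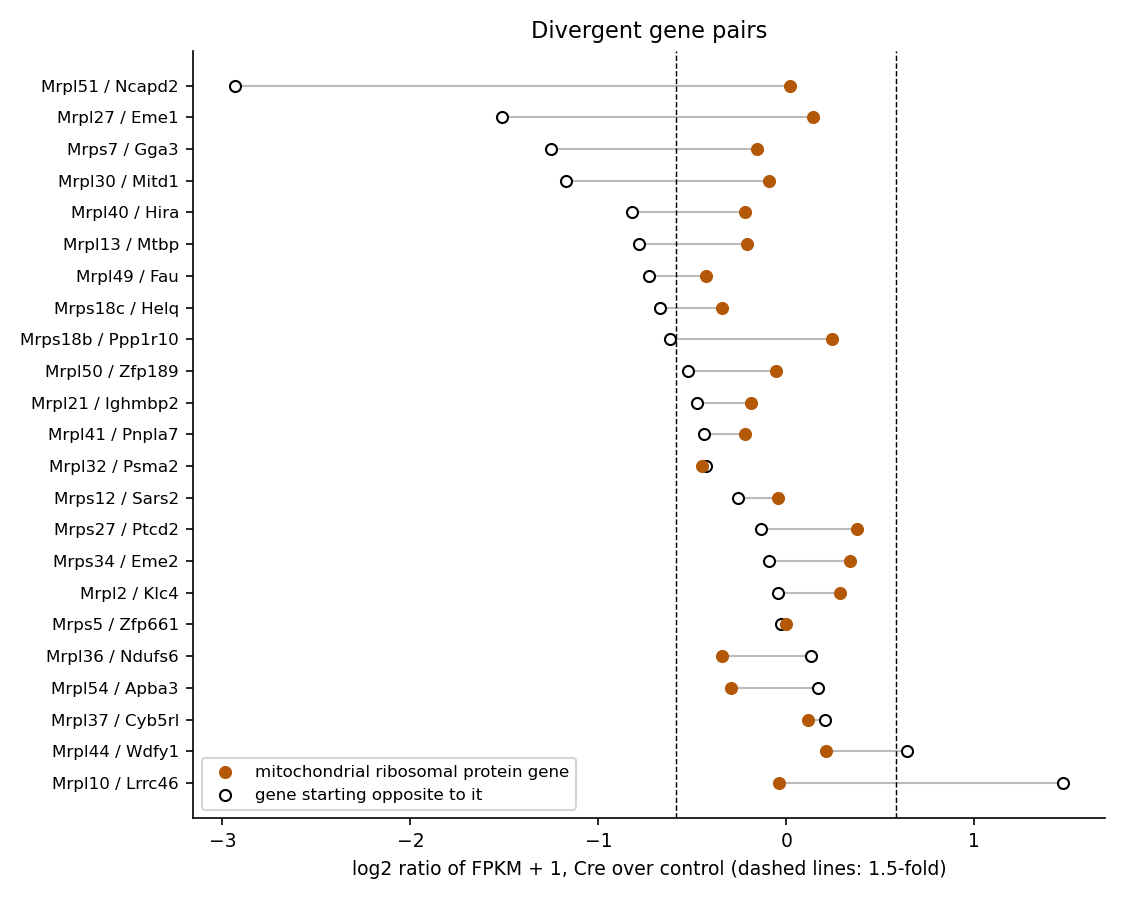
Log2 ratio of FPKM + 1, Cre over control, of 23 members (filled orange) and of the gene starting opposite to each (open), ordered by the neighbour's ratio, with dashed lines at 1.5-fold. The members lie between -0.45 and 0.38, while the neighbours run from -2.93 (Ncapd2, opposite Mrpl51) to 1.47 (Lrrc46, opposite Mrpl10).

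Ratios rose slightly with transcript length, more so in the large subunit. The 25 members with the shortest transcripts (405 to 969 bases) had a median log2 ratio of -0.11, the 26 in the middle -0.06 and the 25 longest (1708 to 7300 bases) -0.04. Spearman's rho across the members was 0.17 for length and -0.12 for mean FPKM. For length it was 0.29 over the 47 large subunit genes, 0.02 over the 29 small subunit genes and 0.03 over all genes. Members lay on 17 chromosomes, with 10 on chromosome 11 and 0 on X or Y.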

How the data were processed

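Poly-A RNA was sequenced after TRIzol extraction, per the labels' protocols. Reads were handled with TopHat, Bowtie and Cufflinks on mm9, per the submitters' processing notes, while their versions, the annotation and the strand setting were not given in the labels or headers. Expression was deposited as 1 value per gene and library, taken as FPKM from its Cufflinks column layout, per the file headers. The same rows hold the authors' deposited log2 fold change, test score, p-value and q-value. Of 15967 rows, 2 with the status HIDATA were left out. FPKM summed to 485189 in the Cre library and 497407 in the control library. Read depth is unknown, so no counting intervals are given, and FPKM is a share, so abundant transcripts of one cell type lower all other values.

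With 1 library per genotype nothing was tested. Log2 ratios were computed with a pseudocount of 1 FPKM, which understates differences of low genes, over the genes that met the minimum of 1 FPKM on average, and set against 1.5-fold and 2-fold sizes (Python 3.11.15, pandas 2.3.3). These steps were tested on simulated data. Named genes are, in each subunit, the 6 highest and 6 lowest ratios, the 5 highest means, the 3 members nearest the minimum, the S18 paralogues and the 7 subunits with other symbols, and in related lists up to 4 genes with the largest absolute ratio and 2 with the highest mean. Not all of these are printed, and 1 gene is not reported here. Genes outside this rule (Mrpl43, Mrpl45, Gabpa, Ppargc1a, Esrrg, Myc, Ppara, Pprc1, the marker genes, the rows sharing a locus with a member and the genes opposite members, with their partners) were chosen after their values were seen.

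The members, gene lists and comparisons were chosen with earlier results of these data known. The symbol patterns for oxidative phosphorylation and cytosolic ribosomal proteins were trimmed of unrelated symbols, and the motifs, their length, the distances for opposite genes and the printed sequences were chosen, after values had been seen. Promoter windows are RefSeq's (GRCm38.p6) and gene starts GENCODE M21's, and neither was combined with the mm9 coordinates of the table. Transcript lengths were found for 100% of members and 98.3% of genes. Alternatives were pseudocounts of 0.1 and 5 FPKM, a minimum of 5 FPKM or none, 4 scalings and leaving out rows with overlapping loci. The scaling without marker lists left out only those of thymocytes, cell cycle, lung and airway, and working cardiomyocytes.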

Additional observations from a re-analysis of the deposited data

How the results depend on the processing

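The sign of the members' median log2 ratio depends on how the libraries are scaled. It was -0.062 as deposited, -0.055 with a pseudocount of 5 FPKM, -0.047 without rows of overlapping loci (67 members left), -0.027 with both libraries scaled to the same sum (TPM), 0.0090 centred on the median of all genes, 0.033 at the same sum without the marker lists and 0.16 at the same upper quartile. For the large subunit the same 6 alternatives gave -0.059, -0.055, -0.039, -0.00076, 0.021 and 0.14, and a pseudocount of 0.1 FPKM gave -0.075. For the small subunit a pseudocount of 5 FPKM gave -0.043, the same sum -0.012, centring 0.025, the same sum without marker lists 0.048 and the same upper quartile 0.17. The same upper quartile put the median of all genes at 0.13 in place of -0.07. Members minus all genes gave 0.0090 as deposited, 0.018 with a pseudocount of 0.1 FPKM, -0.0054 with 5 FPKM, 0.078 with a minimum of 5 FPKM, -0.041 with no minimum, -0.0083 at the same sum, 0.026 at the same upper quartile and -0.0066 at the same sum without marker lists. At the same upper quartile 15 members were below equal expression in place of 48, and 3 (Mrpl4, Mrpl55 and Mrps27, at 0.60, 0.61 and 0.59) were at least 1.5-fold higher, beside 24.9% of all genes. A pseudocount of 0.1 FPKM put 1 member, Mrps25 (-0.60), at 1.5-fold lower or more, beside 24.4% of all genes. No member passed 1.5-fold in the other 7 alternatives. Of 36 named members, 8 took the other sign at the same upper quartile, 4 at the same sum without marker lists, 3 with centring and 1 at the same sum.

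No paired analysis was possible because each genotype has 1 library, and for the same reason leaving out a replicate was not possible. Ratios from 1 pair of libraries carry no measured error, so the order of members with close ratios is not established. Mouse number, dissection and cell makeup cannot be told apart from genotype.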
